A study of Mus musculus with 5 samples.

Results

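A set of 10 genes that build the junctions of the intercalated disc was followed across 5 heart libraries. They were chosen by symbol (Gja1, Dsp, Pkp2, Jup, Dsg2, Dsc2, Cdh2, Ctnna3, Tjp1 and Ctnnb1) for their place in the disc, with earlier results of these data known, and all 10 were among the 17818 gene symbols of the deposited table and among the 12734 that passed the filter on low values. Messenger RNA came from hearts of male mice after bone marrow transplantation, in a study of clonal hematopoiesis, the expansion of mutated blood cell clones, and cardiac ageing. The groups were 2 Tet2+/- hearts given Oridonin, a plant diterpenoid, 2 Tet2+/- hearts given vector and 1 WT heart given vector. The design text places all hearts 12 months after transplantation, and the labels' time field gives 2 months of treatment for every sample. The sample titles differ from this: they carry 1 month for replicate 1 and 2 month for replicate 2 of each Tet2 group, and 1 month for WT. That number served here only as the replicate number, and whether replicates also differ in treatment time cannot be told from the labels. All 3 groups thus shared the transplantation. Tet2 is a DNA demethylation enzyme, and loss of it is a frequent driver of such clones. The labels attach the genotype to the heart sample without saying whether marrow or host carries it, and they give no strain or age for the animals. The groups are called oridonin, Tet2 vector and WT below.

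The intercalated disc joins heart muscle cells end to end. Desmosomes tie the intermediate filaments of neighbouring cells together through desmosomal cadherins and plaque proteins, adherens junctions tie their actin filaments together through N-cadherin and catenins, and gap junctions let current pass from cell to cell. In the mammalian heart desmosomal and adherens proteins mix in a hybrid junction called the area composita, and inherited loss of desmosomal function causes arrhythmogenic cardiomyopathy. Several of these genes are also active outside heart muscle cells: plakoglobin, beta-catenin and ZO-1 in endothelium, N-cadherin and connexin 43 in fibroblasts. In a bulk sample, fewer cells of a type and less RNA per cell cannot be told apart.

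Library totals lay between 14574823 and 15535778 counts. Levels are given as CPM, counts scaled to a common library total, and per kilobase of transcript only where a sentence says so. The mix that the deposited Tet2 columns carried between the replicates of a group was undone first. The WT column was used as deposited; it gave whole counts for only 33.5% of genes, so it is not a plain set of counts, and its levels are given with no count or counting interval. Tet2 itself had 9.43 and 17.9 CPM with oridonin, 19.2 and 7.76 CPM under Tet2 vector and 15.6 CPM in WT, so its level did not separate the genotypes. Genes of the mitochondrial genome took 30.2% and 28.2% of counts in the oridonin libraries, 26.8% and 29.7% in the Tet2 vector libraries and 23.6% in the WT library. All 15 of the cardiomyocyte markers listed were above 3 counts in every library, with a summed level of 61771 and 65042 CPM with oridonin, 57459 and 56518 CPM under Tet2 vector and 61192 CPM in the WT library. Tet2 vector replicate 1 stood apart by atrial markers, with 1088 CPM summed over 6 genes, against 91.7 CPM in Tet2 vector replicate 2, 17.6 and 20.9 CPM in the oridonin libraries and 49.5 CPM in the WT library. Tet2 vector replicate 1 also had the highest sums for 3 other marker lists. Fat cell markers had 22.1 CPM there, against at most 7.41 CPM elsewhere. Nerve and glia markers had 24.2 CPM, against at most 13.0 CPM. Smooth muscle and pericyte markers had 1894 CPM, against at most 1726 CPM. With 1 WT library, differences from WT have no replicate on that side. The labels do not say whether replicates are separate animals, so the p-values speak only of how these samples spread, which may be technical or may include a difference in treatment time.

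No junction gene passed a false discovery rate (FDR) of 0.05 in any of the 3 comparisons, and neither did any other gene tested. In limma's trend test, called members numbered 0 of 10 for oridonin against Tet2 vector, 0 of 10 for Tet2 vector against WT and 0 of 10 for oridonin against WT, where 0% of all tested genes were called in each comparison. At an unadjusted p under 0.05 in limma, 0 of 10 members differed between oridonin and Tet2 vector, beside 2.6% of all tested genes. Between Tet2 vector and WT there were 2 of 10, Dsp and Ctnna3, both lower, beside 9.59% of all genes in either direction and 4.53% lower. Between oridonin and WT there were 2 of 10, Dsp and Pkp2, both lower, beside 6.21% of all genes and 3.53% lower. Voom on the recovered counts, with the WT values rounded, also called 0 members in each comparison.

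The common feature of the members was their place below the WT library. In 8 of 10 (Dsp, Jup, Pkp2, Dsg2, Cdh2, Ctnnb1, Ctnna3 and Tjp1) all 4 Tet2 libraries were lower than WT, where 27.2% of all tested genes were. For Tjp1 this held by almost nothing in Tet2 vector replicate 1 (log2 -0.01), and for Jup by little in Tet2 vector replicate 2 (log2 -0.05). Oridonin libraries lay below WT in 10 of 10 members, beside 41.7% of tested genes, and Tet2 vector libraries in 8 of 10, beside 32.3%. Some margins were small: oridonin replicate 1 was at a log2 of -0.06 from WT in Dsc2 and -0.09 in Jup. Oridonin replicate 2 was at -0.07 in Gja1 and -0.09 in Tjp1. A library total without mitochondrial genes moved the median of all tested genes by 0.11 in oridonin against WT and 0.091 in Tet2 vector against WT. The counts of libraries below WT were not repeated with that total. Gja1 was the 1 member with both Tet2 vector libraries above WT, beside 35.4% of tested genes, and one of them exceeded WT by only 0.01 on the log2 scale. No member had both oridonin libraries above both Tet2 vector libraries, beside 8.37% of tested genes. The median log2 fold change of the members was -0.32 for oridonin over WT, where all tested genes had -0.06, and -0.37 for Tet2 vector over WT, where all tested genes had 0.00. Between oridonin and Tet2 vector it was 0.01, where all tested genes had -0.05. The members share the 1 WT library, so these counts are not independent of each other, and both comparisons with WT share that library.

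**Figure D1:**
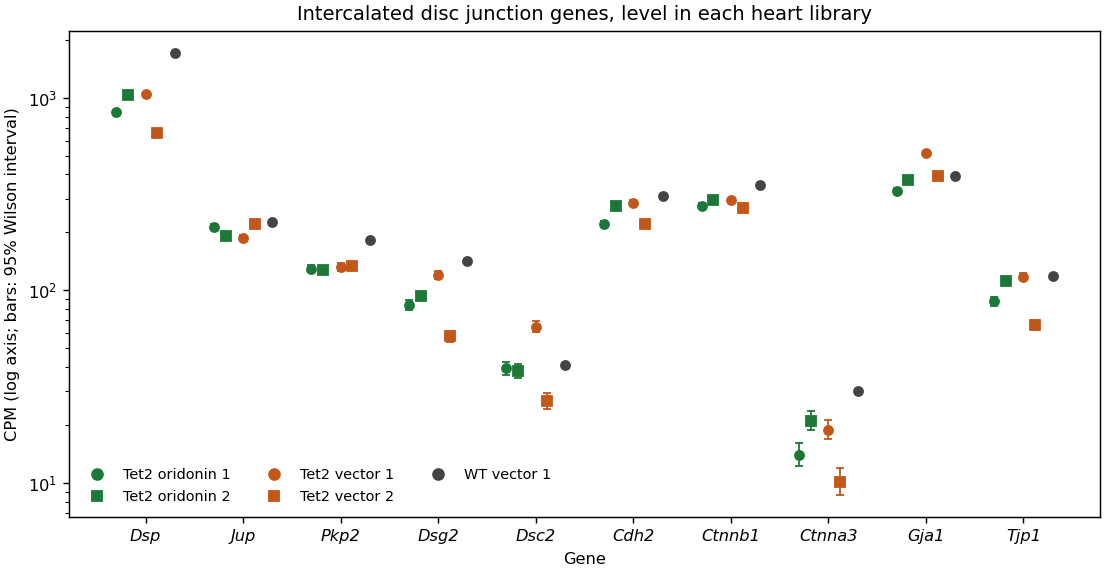
Level of each junction gene in CPM (log axis) in the 2 oridonin, 2 Tet2 vector and 1 WT libraries; bars on the Tet2 points are 95% Wilson intervals, which cover counting error only. The WT point lies above all 4 Tet2 points for 8 of 10 genes, by the most for Dsp and Ctnna3 and barely for Tjp1. The Tet2 vector replicates lie far apart for Dsc2, Dsg2 and Ctnna3.

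Dsp, desmoplakin, links the desmosomal plaque to desmin filaments and is the longest transcript of the set (9.59 kb; chromosome 13, 38151294 to 38198577, plus strand, GRCm38). It had 843 and 1031 CPM with oridonin, 1047 and 656 CPM under Tet2 vector and 1703 CPM in WT. Every Tet2 library was thus far below the WT library, while the oridonin and Tet2 vector libraries overlapped. The log2 fold change was -0.87 for oridonin over WT (standard error 0.31; limma, adjusted p = 0.791) and -1.04 for Tet2 vector over WT (standard error 0.31; limma, adjusted p = 0.442). Between oridonin and Tet2 vector it was 0.17, with a 95% interval of -0.44 to 0.78 (limma, adjusted p = 1). The lowest library for Dsp was Tet2 vector replicate 2, and leaving that library out turned the difference between oridonin and Tet2 vector to -0.17.

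Pkp2, plakophilin 2, binds desmoplakin and the desmosomal cadherins and organises the plaque (chromosome 16, 16213318 to 16272712, plus strand). It had 129.6 and 128 CPM with oridonin, 132 and 134 CPM under Tet2 vector and 183 CPM in WT. Its replicates were the closest of any member within both groups, 0.01 and 0.03 apart on the log2 scale, where the median gap over all tested genes was 0.23 with oridonin and 0.35 under Tet2 vector. Oridonin averaged 129.0 ± 0.934 CPM and Tet2 vector 133 ± 1.64 CPM (SD, n = 2 each). The log2 fold change over WT was -0.50 for oridonin (95% interval -0.97 to -0.04; limma, adjusted p = 0.791) and -0.46 for Tet2 vector (95% interval -0.92 to 0.01; limma, adjusted p = 0.529). Leaving out any of the 4 Tet2 libraries left these at -0.51 to -0.50 and -0.47 to -0.44. The oridonin libraries also lay below both Tet2 vector libraries, but only by a log2 of 0.05 on average, and this sign flipped to 0.01 with median of ratios scaling.

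Jup, plakoglobin or gamma-catenin, is the catenin shared by desmosomes and adherens junctions (chromosome 11, 100368958 to 100397763, minus strand). It had 215 and 193 CPM with oridonin, 187 and 220.2 CPM under Tet2 vector and 228 CPM in WT. The groups were level: oridonin over Tet2 vector came to 0.00 on the log2 scale with a 95% interval of -0.41 to 0.42 (limma, adjusted p = 1). The fold change over WT was -0.16 for oridonin and -0.17 for Tet2 vector on the log2 scale, with standard errors of 0.21 (limma, adjusted p = 0.9 and 0.824).

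Dsg2 and Dsc2, desmoglein 2 and desmocollin 2, are the desmosomal cadherins of heart muscle, whose extracellular parts bind across the gap between cells. They lie in the same gene cluster on chromosome 18 (Dsg2 at 20558074 to 20604521, plus strand; Dsc2 at 20030633 to 20059554, minus strand). Dsg2 had 84.1 and 93.6 CPM with oridonin, 119.98 and 57.8 CPM under Tet2 vector and 142 CPM in WT. All 4 Tet2 libraries were below WT, with the oridonin libraries between the Tet2 vector replicates. Its log2 fold change was -0.67 for oridonin over WT and -0.76 for Tet2 vector over WT, with standard errors of 0.42 (limma, adjusted p = 0.836 and 0.607).

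Dsc2 did not share this place. It had 39.4 and 38.4 CPM with oridonin, 64.9 and 26.7 CPM under Tet2 vector and 41.2 CPM in WT. The Tet2 vector replicates lay on either side of every other library, 1.28 apart on the log2 scale, and their mean was 0.01 from WT (standard error 0.50; limma, adjusted p = 0.994). The high library was the one with atrial markers, and without it Tet2 vector was at -0.63 against WT and oridonin at 0.54 above Tet2 vector, neither called. The part of atrial tissue in the Dsc2 level was not tested.

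Cdh2, N-cadherin, is the classical cadherin of heart muscle and anchors the actin-linked junction (chromosome 18, 16588877 to 16809246, minus strand). It had 221 and 274 CPM with oridonin, 285 and 220.5 CPM under Tet2 vector and 308 CPM in WT. The Tet2 groups overlapped and both lay below WT. The log2 fold change was -0.32 for oridonin over WT and -0.30 for Tet2 vector over WT, with standard errors of 0.25 (limma, adjusted p = 0.855 and 0.729).

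Ctnnb1, beta-catenin, couples N-cadherin to alpha-catenin and also carries the Wnt signal to the nucleus (chromosome 9, 120929216 to 120960507, plus strand). It had 274 and 295 CPM with oridonin, 295 and 268 CPM under Tet2 vector and 352 CPM in WT. The 4 Tet2 libraries formed a narrow range below WT. Oridonin over Tet2 vector was 0.02 on the log2 scale, with a 95% interval of -0.36 to 0.40 (limma, adjusted p = 1). The fold change over WT was -0.31 for oridonin and -0.33 for Tet2 vector on the log2 scale, with standard errors of 0.19 (limma, adjusted p = 0.831 and 0.618).

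Ctnna3, alpha-T-catenin, is the alpha-catenin enriched in heart and testis; it binds plakophilin 2 in the area composita (chromosome 10, 63430098 to 65003667, plus strand, a span of 1573.6 kb). It had 14.0 and 21.1 CPM with oridonin, 18.9 and 10.2 CPM under Tet2 vector and 30.0 CPM in WT. These levels rest on 205 and 307 counts with oridonin and 294 and 156 counts under Tet2 vector, the fewest of the set. The lowest library had a 95% Wilson interval of 8.7 to 11.9 CPM and the highest Tet2 library one of 18.8 to 23.6 CPM, which cover counting error only. The log2 fold change was -0.80 for oridonin over WT and -1.11 for Tet2 vector over WT, with standard errors of 0.45 (limma, adjusted p = 0.822 and 0.517). In Tet2 vector against WT only 1.77% of tested genes had a log2 fold change as low as or lower than that of Ctnna3, and 2.35% one as low as that of Dsp. Both were named among 10 members here, and neither percentage is a test.

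Gja1, connexin 43, forms the gap junction channels of ventricular muscle and had the highest mean level per kilobase of the set over the 5 libraries, with a range that overlapped that of Dsp. It had 330 and 374 CPM with oridonin, 518 and 394 CPM under Tet2 vector and 392 CPM in WT (chromosome 10, 56377330 to 56402513, plus strand). Both oridonin libraries were below both Tet2 vector libraries, which was also so in 17.8% of all tested genes, and among the members only in Gja1 and Pkp2. The log2 fold change of oridonin over Tet2 vector was -0.36 with a 95% interval of -0.82 to 0.10 (limma, adjusted p = 1), the largest in size of the set in this comparison. It was -0.17 without the Tet2 vector library that held the atrial markers and -0.56 without the other replicate. Against WT it was -0.16 for oridonin and 0.20 for Tet2 vector on the log2 scale, with standard errors of 0.23 (limma, adjusted p = 0.914 and 0.806).

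The starts of Gja1, Jup and Ctnnb1 are printed here because Gja1 had the largest fold change of the set between oridonin and Tet2 vector and these related catenins the smallest. Each line is the 250 bases before 1 RefSeq start (GRCm38.p6), 5′ to 3′ on the strand of the gene, in lower case. Capitals mark matches on either strand to the GC box GGGCGG, the CCAAT box, the TATA box TATAAA, the AP-1 site TGANTCA, the TCF/LEF site CTTTGA and the GATA site AGATAA. No marked matches overlapped.
Gja1, chr10:56377050-56377299, plus strand: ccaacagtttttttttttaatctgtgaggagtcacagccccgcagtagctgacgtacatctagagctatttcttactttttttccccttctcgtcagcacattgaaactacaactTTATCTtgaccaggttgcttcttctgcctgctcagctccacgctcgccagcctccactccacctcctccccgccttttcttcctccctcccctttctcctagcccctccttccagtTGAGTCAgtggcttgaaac
Jup, chr11:100397791-100398040, minus strand: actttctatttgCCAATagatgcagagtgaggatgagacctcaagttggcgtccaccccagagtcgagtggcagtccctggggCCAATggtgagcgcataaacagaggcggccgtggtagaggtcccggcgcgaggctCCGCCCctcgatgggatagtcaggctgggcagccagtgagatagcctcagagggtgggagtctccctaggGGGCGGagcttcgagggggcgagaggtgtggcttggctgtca
Ctnnb1, chr9:120933150-120933399, plus strand: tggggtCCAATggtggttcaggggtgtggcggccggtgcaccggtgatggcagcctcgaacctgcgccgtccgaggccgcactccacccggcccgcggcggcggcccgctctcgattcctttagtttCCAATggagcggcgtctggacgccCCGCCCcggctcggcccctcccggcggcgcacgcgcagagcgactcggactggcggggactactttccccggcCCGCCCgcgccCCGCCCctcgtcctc
The Gja1 window held 1 AP-1 and 1 GATA match and 0 GC boxes, with 50.0% G or C. The Jup window held 2 GC boxes and 2 CCAAT boxes at 62.0% G or C, and the Ctnnb1 window 3 GC boxes and 2 CCAAT boxes at 74.8%. Ctnnb1 has another RefSeq start downstream, whose window overlaps exons, is not printed, and held 2 GC boxes, 0 CCAAT boxes and 1 TATA box. Over all 32851 windows of this length, an AP-1 match occurred in 6.75%, a GATA match in 9.99%, a GC box in 32.7%, a CCAAT box in 33.8%, a TATA box in 12.4% and a TCF/LEF match in 13.8%. A match is a run of letters and not a binding site, and no factor binding was measured in these libraries.

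Tjp1, zonula occludens 1 or ZO-1, is a scaffold that binds connexin 43 and borders the gap junction plaque (7.05 kb; chromosome 7, 65296165 to 65527781, minus strand). It had 87.7 and 112 CPM with oridonin, 118 and 66.3 CPM under Tet2 vector and 118 CPM in WT. Tet2 vector replicate 1 was level with WT and replicate 2 was the lowest library. The log2 fold change was -0.26 for oridonin over WT and -0.42 for Tet2 vector over WT, with standard errors of 0.37 (limma, adjusted p = 0.912 and 0.744).

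**Figure D2:**
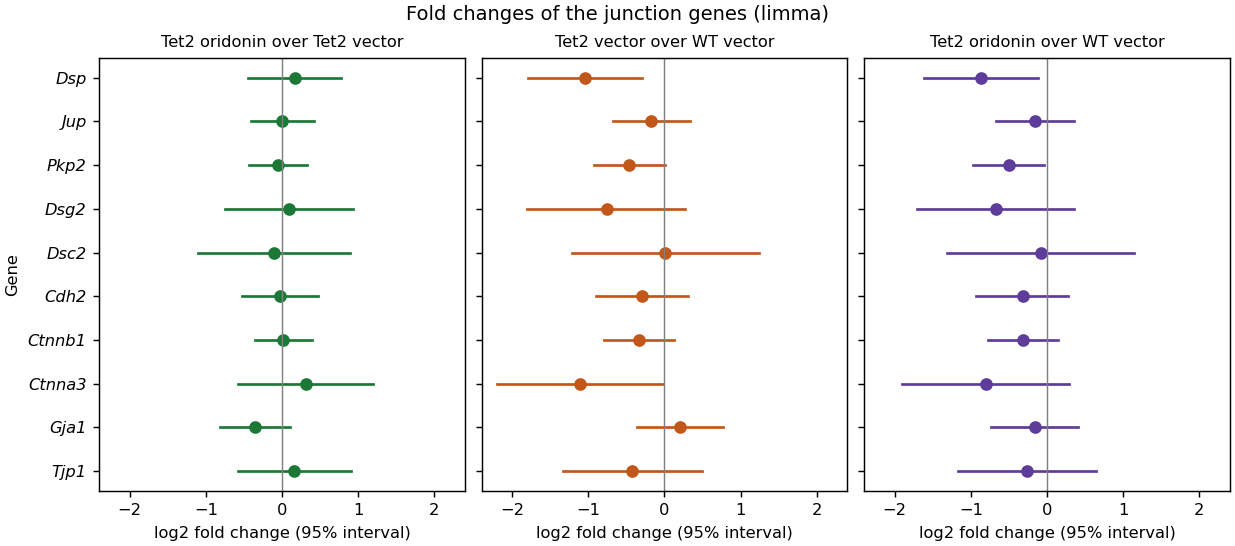
Log2 fold change of each junction gene with its 95% interval from limma, for oridonin over Tet2 vector, Tet2 vector over WT and oridonin over WT. Intervals that exclude 0 belong to Dsp and Ctnna3 in Tet2 vector over WT and to Dsp and Pkp2 in oridonin over WT, and none of them passed an FDR of 0.05 over all genes.

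Set per kilobase of the longest coding transcript, the members covered a wide range of levels. Gja1 had 104 to 163 CPM per kilobase over the 5 libraries and Dsp 68.4 to 178, so that these leading genes could not be ordered beyond their spread. Ctnnb1 had 73.9 to 97.4 CPM per kilobase and Jup 58.4 to 71.2, with no overlap between them. Cdh2 at 45.6 to 63.6 and Pkp2 at 43.9 to 62.7 CPM per kilobase overlapped almost fully. Dsg2 at a mean of 17.2 and a highest library of 24.5, Tjp1 at 9.4 to 16.8 and Dsc2 at 5.76 to 14.0 CPM per kilobase came next, each overlapping its neighbour. Ctnna3 was lowest at 2.76 to 8.16 CPM per kilobase. In the WT library Dsp led the order at 178 CPM per kilobase, ahead of Gja1 at 123, and in all 4 Tet2 libraries Gja1 was ahead of Dsp.

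Ratios within a library do not depend on the library total, and 5 pairs of relatives were set against each other per kilobase. Dsc2 over Dsg2 was 0.583 and 0.511 with oridonin, 0.674 and 0.575 under Tet2 vector and 0.363 in WT. All 4 Tet2 libraries thus held more Dsc2 for each Dsg2 transcript than the WT library did. Ctnna3 over Ctnna1, the widely expressed alpha-E-catenin, was 0.0291 and 0.0397 with oridonin, 0.0328 and 0.0249 under Tet2 vector and 0.053 in WT, lower in all 4 Tet2 libraries. Ctnna1 itself had 489 and 539 CPM with oridonin, 587 and 415 CPM under Tet2 vector and 575 CPM in WT.

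Jup over Ctnnb1 was 0.884 and 0.738 with oridonin, 0.717 and 0.93 under Tet2 vector and 0.731 in WT, with no order by group. Pkp4 over Pkp2 was 0.519 and 0.64 with oridonin, 0.451 and 0.422 under Tet2 vector and 0.61 in WT. Gjc1, connexin 45, stayed between 0.0659 and 0.0898 of Gja1. These ratios are descriptions of 5 libraries without a test.

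**Figure D3:**
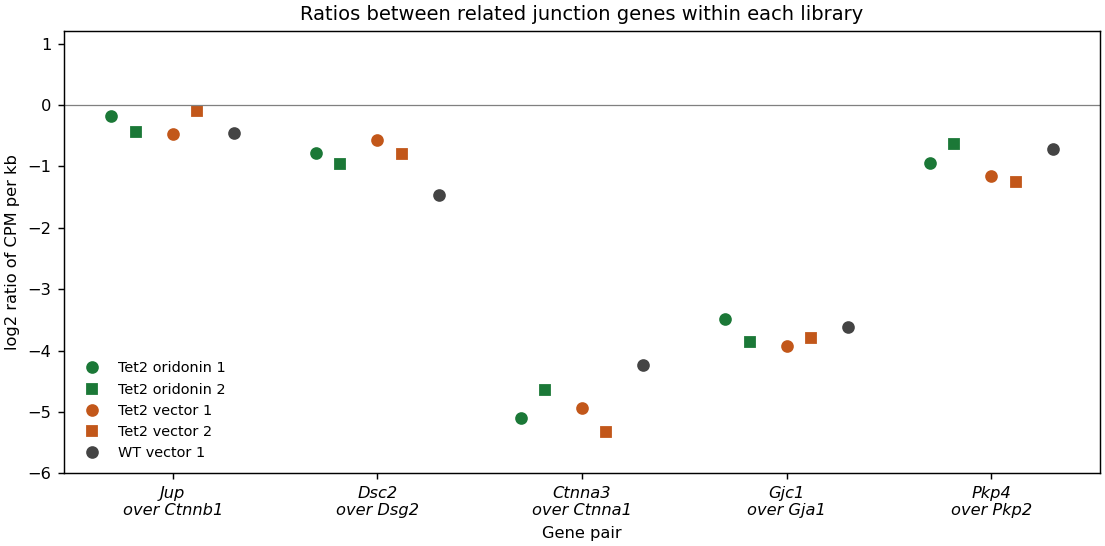
Log2 ratio of CPM per kilobase for 5 pairs of related junction genes in each library. The WT point is the lowest for Dsc2 over Dsg2 (log2 -1.46, against -0.97 to -0.57 in the Tet2 libraries) and the highest for Ctnna3 over Ctnna1 (log2 -4.24, against -5.33 to -4.65).

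Over all genes, differences between replicates moved with transcript length, and differences from WT did so in some libraries. The members did not all follow their length. Tet2 vector replicate 2 differed from replicate 1 by a median log2 of 0.28 for 1502 genes under 1.5 kb, 0.02 at 1.5 to 3 kb, -0.25 at 3 to 5 kb, -0.51 at 5 to 8 kb and -0.76 for 708 genes of 8 kb and over. The oridonin replicates differed the other way round, with a median log2 of replicate 2 minus replicate 1 of -0.14 for the shortest and 0.43 for the longest transcripts. Tet2 vector replicate 2 and oridonin replicate 1 were thus the libraries low in long transcripts. Tet2 vector replicate 1 was flat against WT, with class medians of 0.10 for the shortest and 0.03 for the longest transcripts. Against WT, genes of 8 kb and over had a median log2 of -0.59 and -0.12 in the oridonin libraries and -0.72 in Tet2 vector replicate 2.

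Dsp, at 9.59 kb, followed its length class between the Tet2 vector replicates, at -0.68 beside a class median of -0.76. Dsg2 at -1.05 and Tjp1 at -0.83 lay below their class median of -0.51. Shorter members differed by more than Dsp, with Dsc2 at -1.28 and Ctnna3 at -0.89 beside a class median of -0.25. Jup at 0.24 lay above the same class median of -0.25, and Pkp2, the shortest transcript of the set at 2.92 kb, was at 0.03 beside 0.02. Against WT several members were lower than genes of their length. In Tet2 vector replicate 1, where long transcripts were level with WT, Dsp was at -0.70 beside a class median of 0.03, Ctnna3 at -0.66 beside 0.06 and Pkp2 at -0.47 beside 0.09. In oridonin replicate 2, which also had little length trend against WT, Dsp was at -0.72 beside -0.12, Dsg2 at -0.60 beside -0.09 and Ctnna3 at -0.51 beside -0.04.

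With log2 CPM centred within 10 classes of length, all 4 Tet2 libraries stayed below WT for 6 of 10 members (Dsp, Pkp2, Dsg2, Cdh2, Ctnna3 and Ctnnb1), beside 28.8% of genes with a length. Jup and Tjp1 left that count. In that fit 3 of 10 members, Dsp, Pkp2 and Ctnna3, had an unadjusted p under 0.05 in Tet2 vector against WT, beside 14.2% of genes, 2 of 10, Dsp and Pkp2, in oridonin against WT, beside 9.72%, and 0 of 10 in oridonin against Tet2 vector, beside 4.09% (limma). Still 0 members passed the FDR. This centring was chosen after the values were seen.

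**Figure D4:**
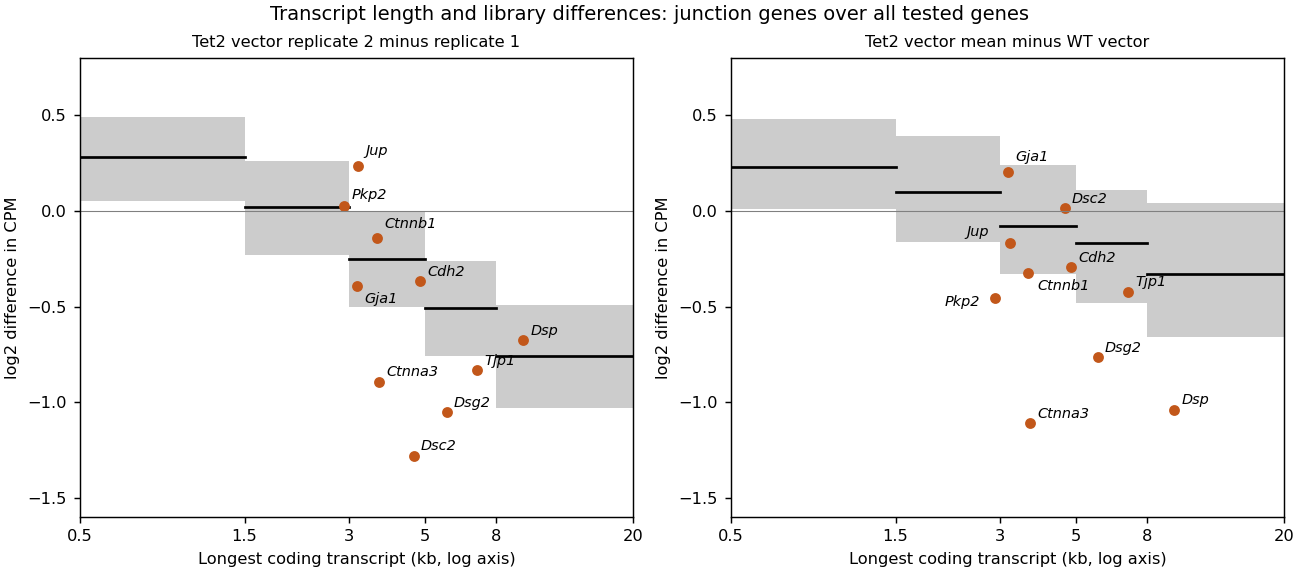
Log2 difference in CPM against the length of the longest coding transcript (log axis), for Tet2 vector replicate 2 minus replicate 1 and for the Tet2 vector mean minus WT. Black lines are medians and grey bands the middle 50% of all tested genes in 5 length classes; orange points are the junction genes, of which Dsp follows its class between replicates (-0.68 beside -0.76) and lies below it against WT (-1.04 beside -0.33).

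Markers of other cell types gave the following values beside these results. Endothelial markers (12 of 12 in the table) summed to 1569 and 1693 CPM with oridonin, 1500 and 1448 CPM under Tet2 vector and 1635 CPM in WT. Fibroblast markers (12 of 12) summed to 2063 and 1930 CPM with oridonin, 3292 and 3365 CPM under Tet2 vector and 2998 CPM in WT. Gsn alone held 1178 and 1005 CPM, 1682 and 1691 CPM, and 1944 CPM of these sums. For Tet2 vector over WT, 10 of 12 were higher and 2 lower in limma (median log2 0.58, beside 0.00 over all tested genes). At an unadjusted p under 0.05 there were 5 higher, beside 9.59% of all tested genes in either direction, and 0 passed the FDR. In limma, 12 of 12 fibroblast markers were lower with oridonin than under Tet2 vector (median log2 -0.87). Of these, 11 had an unadjusted p under 0.05, beside 2.6% of all tested genes in either direction, and 0 passed the FDR. Gja1 and Cdh2, which fibroblasts also express, were at a log2 of -0.36 and -0.03 for oridonin over Tet2 vector. The part of fibroblasts in their levels was not tested. Macrophage markers (11 of 11) summed to 401 and 400.3 CPM with oridonin, 667 and 428 CPM under Tet2 vector and 372 CPM in WT. Mesothelial and epithelial markers (7 of 11 in the table) were near 0, with a summed 4.43 to 7.68 CPM per library, most of it Wt1. The epithelial desmosome and adherens genes were near 0 as well: Pkp1 had at most 2 counts, Dsg3 at most 2, Cdh1 at most 2 and Pkp3 at most 3 in any Tet2 library.

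The wider disc was read from 6 lists of other junction and associated genes, 101 in all, of which 88 were in the table and 70 were tested. Of these 70, 0 passed the FDR in any comparison (limma). For oridonin against Tet2 vector, 28 were higher and 42 lower with a median log2 fold change of -0.05, the same as over all tested genes, and at an unadjusted p under 0.05 there were 1 higher and 1 lower, beside 2.6% of all tested genes in either direction. For Tet2 vector against WT, 21 were higher and 49 lower with a median of -0.15, beside 0.00 over all genes, and 1 higher and 7 lower at an unadjusted p under 0.05, beside 9.59% of all tested genes in either direction and 4.53% lower. For oridonin against WT, 17 were higher and 53 lower with a median of -0.19, beside -0.06, and 2 higher and 4 lower at an unadjusted p under 0.05, beside 6.21% in either direction and 3.53% lower.

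Among other desmosome genes, 5 of 11 were tested. Pkp4, a plakophilin relative found at both desmosomes and adherens junctions, had 106 and 129.7 CPM with oridonin, 94.3 and 89.7 CPM under Tet2 vector and 176 CPM in WT. The oridonin libraries lay between the other groups without overlap (Tet2 vector over WT, log2 -0.94, standard error 0.22; limma, adjusted p = 0.363). Oridonin was above Tet2 vector without overlap in 8.37% of all tested genes, and the share that also lay below WT was not counted. Des, desmin, the filament that desmoplakin holds, had 1695 and 1545 CPM with oridonin, 1387 and 1881 CPM under Tet2 vector and 2122 CPM in WT. Perp, a desmosomal membrane protein, had 134 and 136 CPM with oridonin, 165 and 185 CPM under Tet2 vector and 135 CPM in WT (oridonin over Tet2 vector, log2 -0.37; limma, adjusted p = 1).

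Among other adherens genes, 17 of 21 were tested. Limd1, a LIM domain protein that can sit at adherens junctions, had 63.5 and 65.9 CPM with oridonin, 73.7 and 66.5 CPM under Tet2 vector and 144 CPM in WT. It was lower than WT in all 4 Tet2 libraries, as were 27.2% of all tested genes (oridonin over WT, log2 -1.15, standard error 0.21; limma, adjusted p = 0.546). Cdh5, the endothelial cadherin, had 243 and 254 CPM with oridonin, 206 and 206 CPM under Tet2 vector and 278 CPM in WT. Vcl, vinculin, which links the junction to actin, had 43.1 and 58.1 CPM with oridonin, 80.3 and 29.6 CPM under Tet2 vector and 84.6 CPM in WT, with the Tet2 vector replicates on either side of the oridonin libraries.

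Of the other connexin genes 5 of 16 were tested. Gja5, the connexin 40 of atria and conduction tissue, had 8.96 and 8.92 CPM with oridonin, 15.1 and 7.89 CPM under Tet2 vector and 9.26 CPM in WT. Its high library was again the one with atrial markers. Gjc1 had 21.5 and 18.7 CPM with oridonin, 24.8 and 20.7 CPM under Tet2 vector and 23.3 CPM in WT, without an order by group. Of tight junction type genes 10 of 13 were tested, and Cldn5, a claudin of endothelium and the lateral membrane of mouse heart muscle cells, had 13.8 and 11.9 CPM with oridonin, 10.2 and 17.02 CPM under Tet2 vector and 26.0 CPM in WT (oridonin over WT, log2 -1.02, standard error 0.37; limma, adjusted p = 0.791).

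Genes of proteins anchored at the disc were 19 tested of 20. For Tet2 vector over WT 16 were lower and 3 higher, with a median log2 fold change of -0.21, beside 0.00 over all tested genes. Nrap, a protein of the sarcomere-to-disc attachment, had 536 and 636 CPM with oridonin, 428 and 457 CPM under Tet2 vector and 787 CPM in WT. Its oridonin libraries were above both Tet2 vector libraries, as in 8.37% of all tested genes, and below WT, an order whose share was not counted (oridonin over Tet2 vector, log2 0.40, standard error 0.16; limma, adjusted p = 1). Xirp2, an actin-binding protein of the disc, went the other way, with 188 and 474 CPM with oridonin, 318 and 263 CPM under Tet2 vector and 123 CPM in WT (oridonin over WT, log2 1.28, standard error 0.51; limma, adjusted p = 0.791). This value rested on 1 library: without oridonin replicate 1 it was 1.94 (limma, adjusted p = 0.0101) and without oridonin replicate 2 it was 0.61 (limma, adjusted p = 1). In either case 1 oridonin library is set against 1 WT library, and the spread comes from the Tet2 vector pair alone.

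Partners and targets of beta-catenin were 14 tested of 20. For oridonin over Tet2 vector 6 were higher and 8 lower (median log2 -0.06, beside -0.05 over all tested genes). For Tet2 vector over WT 6 were higher and 8 lower (median log2 -0.13, beside 0.00). For oridonin over WT 3 were higher and 11 lower (median log2 -0.29, beside -0.06). Nkd2, an inhibitor of Wnt signalling, had 1.98 and 1.58 CPM with oridonin, 4.18 and 5.48 CPM under Tet2 vector and 1.85 CPM in WT. These levels rest on 23 to 84 counts in the Tet2 libraries. Both Tet2 vector libraries were above the others (oridonin over Tet2 vector, log2 -1.42, standard error 0.37; limma, adjusted p = 1). Both lay above both oridonin libraries in 17.8% of all tested genes and above WT in 35.4%. The share with both orders was not counted. Ccnd1, cyclin D1, had 54.2 and 74.99 CPM with oridonin, 86.7 and 33.3 CPM under Tet2 vector and 24.2 CPM in WT. The WT library was the lowest, and in 35.4% of all tested genes both Tet2 vector libraries lay above WT. Ctnnbip1, which blocks beta-catenin from its nuclear partners, had 16.0 and 18.3 CPM with oridonin, 12.1 and 14.5 CPM under Tet2 vector and 23.6 CPM in WT.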

How the data were processed

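Poly-A RNA was prepared with the NEBNext Ultra chemistry (per the labels' protocols). The submitters' processing notes name mm10. No aligner, counter, annotation or strand setting is given in the sources used here. In 5 columns, the authors deposited log2 values for 17818 symbols. From the values, these are log2 CPM with 0.5 added to each count, and each Tet2 column is 0.75 its own and 0.25 the other replicate's value. With this undone, 99.92% to 99.94% of genes per column gave whole counts within 0.01. The WT column, whole in 33.5% of 17818 genes but in 99.9% of 2423 genes with 1 to 4 counts, could not be separated into its sources here and was used as deposited as 1 sample.

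The log2 CPM of all 5 libraries were fitted by group with limma 3.58.1 in R 4.3.3 (trend, robust), over the 12734 genes that reached 1 CPM in 2 or more libraries, with Benjamini-Hochberg adjustment and 2 residual degrees of freedom. WT, a single library, is taken to vary as the Tet2 groups do. Alternatives covered the mix, voom, filters, scaling, pseudocount, leaving out libraries and the replicate block.

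Positions and lengths (longest coding transcript in the basic set) are from GENCODE vM21 (GRCm38), with a length for 93.3% of tested genes. Exons of Dsp, Dsg2 and Ctnnb1 overlap those of genes on the other strand by up to 499, 330 and 475 bases. Of these, Gm16090 had at most 0.137 CPM and Ulk4 at most 0.522 CPM. Promoters are from RefSeq, which matched 6 members. Named genes outside the members were up to 3 per list and comparison with the smallest unadjusted p. Outside that rule and after values were seen, Ctnna1, Tet2, Pkp1, Dsg3, Cdh1, Pkp3 and Wt1 were named. Members and lists were chosen with earlier results of these data known.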

Additional observations from a re-analysis of the deposited data

How the results depend on the processing

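The count of members past the FDR was 0 in every comparison under every setting but that of the deposited mixed values, where it was 3 in Tet2 vector against WT (Dsp, Pkp2 and Ctnna3, beside 18.2% of all genes) and 2 in oridonin against WT (Dsp and Pkp2, beside 7.82%). That mix shrinks replicate differences by construction. Over all genes the mixed values gave 76 calls in oridonin against Tet2 vector, 2312 in Tet2 vector against WT and 996 in oridonin against WT. Leaving out 1 library gave 0 to 32, 2 to 107 and 0 to 24 calls in these comparisons and 0 members in each. The 4 Tet2 libraries with the replicate number as a block gave 9 calls and 0 members. Same-numbered libraries did not deviate together (r = -0.296 over 12734 genes). A block with the numbers crossed, added after the data were seen, gave 48 calls and 0 members. Centring within length classes gave 1 call for oridonin against WT, which was not a member.

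Of 420 alternative fold changes of members, 394 kept direction and call, 5 passed the FDR (all on the mixed values) and 21 turned direction, none of them called. Median of ratios scaling turned Dsc2 to -0.01 in Tet2 vector against WT, and Pkp2 to 0.01 and Cdh2 to 0.03 in oridonin against Tet2 vector. A library total without mitochondrial genes moved the median of all genes by 0.11 in oridonin against WT and turned Dsc2 there to 0.03. Length centring turned Pkp2 to 0.04 and Cdh2 to 0.01 in oridonin against Tet2 vector, and Dsc2 to 0.09 and Tjp1 to 0.01 in oridonin against WT. Leaving out 1 library turned Dsc2 in Tet2 vector against WT (-0.63 to 0.65). In oridonin against Tet2 vector it turned Dsp, Jup, Dsg2, Dsc2, Cdh2, Ctnna3, Tjp1 and Ctnnb1 (Dsp -0.17 to 0.51, Jup -0.11 to 0.12, Dsg2 -0.44 to 0.62, Dsc2 -0.74 to 0.54, Cdh2 -0.21 to 0.16, Ctnna3 -0.14 to 0.75, Tjp1 -0.25 to 0.58, Ctnnb1 -0.05 to 0.09). The cause of these turns was not tested. Among 750 alternatives of other named genes, 3 turned direction, each on leaving out 1 library: Gja3 (-0.00 to 0.65) and Gja4 (-0.07 to 0.73) in Tet2 vector against WT and Gja5 (-0.75 to 0.18) in oridonin against Tet2 vector. All 30 alternative ratios moved by less than the replicate spread or, in WT, an interval from its apparent counts. This outcome was fixed in advance. The mixed values have the same group means, and a larger pseudocount barely alters genes with counts this high.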
